A study of Arabidopsis thaliana with 4 samples.

Results

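The genes described here, 10 in number, encode pumps and a channel-family protein that move calcium, protons or anions across membranes in Arabidopsis thaliana, and they were followed across 4 RNA-seq libraries. They were chosen by locus identifier and are 10 of the 33539 entries used from the deposited table. The 3 ER-type calcium pump genes are ECA1 (AT1G07810), ECA2 (AT4G00900) and ECA3 (AT1G10130), and the plasma membrane calcium pump gene is ACA8 (AT5G57110). The plasma membrane proton pump genes are AHA1 (AT2G18960) and AHA2 (AT4G30190). AVP1 (AT1G15690) encodes the proton pyrophosphatase of the vacuole, VHA-A (AT1G78900) and DET3 (AT1G12840) encode subunits A and C of the vacuolar proton ATPase, and CLC-D (AT5G26240) belongs to the chloride channel family. The choice was made with the FPKM values of these libraries known, and ECA2 and CLC-D are 2 genes that the study itself singled out from the same libraries. All values below are therefore a description.

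Poly(A) RNA came from whole seedlings, homozygous for a T-DNA insertion and harvested 5 days after transfer to light, with 1 library per condition. The wbc19 mutant line (SALK_107731) was grown on MS medium with 50 mg/l kanamycin (mutant + kan) or without it (mutant). The control line was grown in the same ways (control + kan and control). It is not an untransformed wild type. SALK_064816C carries its own T-DNA insertion, close to the gene TRANSPARENT TESTA 4, in a place where no gene is disrupted. The T-DNA is the same in both lines and carries NPTII, a bacterial kanamycin resistance gene. The study describes the control line as resistant to kanamycin at 50 mg/l, and the mutant line as sensitive to it. Kanamycin is an aminoglycoside antibiotic, and WBC19 is an ABC transporter that confers resistance to it in plants. Each line is a single insertion line, and nothing in the labels gives the number of seedlings behind a library.

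Calcium pumps and proton pumps of the plasma membrane are P-type ATPases, which pass the phosphate of ATP to an aspartate of their own during each transport cycle. The calcium pumps keep calcium low in the cytosol by moving it into the endoplasmic reticulum, the Golgi or out of the cell, and the ER-type pumps also carry manganese. The proton pumps set up the gradient across the plasma membrane that drives nutrient uptake and cell expansion. Inside the cell, the vacuolar ATPase and the pyrophosphatase acidify the vacuole, and the ATPase also acidifies the trans-Golgi network, where the CLC-D protein is found. CLC proteins exchange anions for protons or act as anion channels.

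The motif with the phosphorylated aspartate is shown for the 6 P-type members and for ECA4, the closest relative of ECA1, because it shows how far reads of 36 bases can tell the copies apart. The 15 bases in capitals encode the motif. Each stretch of 36 bases is the coding strand, 5′ to 3′, from the RefSeq assembly of TAIR10.
ECA1, chr1:2417815-2417850, plus strand: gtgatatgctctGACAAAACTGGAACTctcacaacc
ECA4, chr1:2373027-2373062, minus strand: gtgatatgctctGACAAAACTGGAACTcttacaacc
ECA2, chr4:385102-385137, minus strand: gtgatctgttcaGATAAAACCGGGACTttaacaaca
ECA3, chr1:3315983-3316018, plus strand: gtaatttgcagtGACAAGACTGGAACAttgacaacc
ACA8, chr5:23113787-23113822, minus strand: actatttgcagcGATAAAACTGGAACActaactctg
AHA1, chr2:8224285-8224320, plus strand: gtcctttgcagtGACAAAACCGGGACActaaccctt
AHA2, chr4:14773693-14773728, minus strand: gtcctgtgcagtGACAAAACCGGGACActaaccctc
Over these 36 bases ECA4 differs from ECA1 at 1 position and AHA2 from AHA1 at 2, whereas ECA2 differs from ECA1 at 9. The alignment of the reads allowed 2 mismatches. Of all stretches of 36 bases in the ECA1 transcript, 71.8% lie within 2 mismatches of ECA4 and 32.3% are identical to it. For AHA1 and AHA2, 18.1% and 21.4% lie within 2 mismatches of another listed gene, mostly of each other, and 1.73% and 1.96% are identical. The share is 0.426% for ACA8. ECA2, ECA3, AVP1, VHA-A, DET3 and CLC-D have no such stretch in common with the other listed genes. Single values of ECA1 and ECA4 are thus uncertain, and those of AHA1 and AHA2 less so.

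The values are FPKM, which scale the fragments on a gene to its transcript length and to the size of the library. From the step between the lowest values, 1 read was estimated to be worth 0.153 to 0.919 FPKM in the described genes. This step implies a scaling total of about 843000 reads in the library labelled mutant + kan, 1446000 in that labelled mutant, 1689000 in that labelled control + kan and 895000 in that labelled control. The mapped reads that the study states are higher on average, for a reason not given in the sources used here. All read numbers and intervals below rest on the step. An interval beside a level is the exact 95% Poisson interval of its estimated reads, and one beside a fold is the exact interval of the ratio of reads. They cover counting error only, because PCR copies of a fragment could not be recognised, and with 1 library per condition there is no measure of the spread between plants and no test. WBC19 went against its labels, so the libraries are called by their labels throughout, and the lines likewise. Whether its reads lie outside the part that the insertion disrupts was not examined, and no exchange of labels is read from them. The library labelled mutant + kan had 2.30 FPKM and that labelled mutant 3.00 FPKM, from about 4 and 10 reads. WBC19 was listed at 0 in both libraries of the control line, where 3 reads would have given 0.768 FPKM with kanamycin and 1.45 FPKM without it. The 9 markers of photosynthetic shoot cells were present in every library. Of 14 root markers, 4 were listed at 0 in the library labelled mutant + kan, 9 in that labelled mutant, 6 in that labelled control + kan and 3 in that labelled control. Their summed level was 572, 1392, 692 and 974 FPKM in the same order of libraries, most of it from PYK10, and 76.1, 93.1, 86.7 and 63.9 FPKM without that gene. The number of genes above 0 was 13217 in the library labelled mutant + kan, 9013 in that labelled mutant, 11090 in that labelled control + kan and 15072 in that labelled control. Of 10 genes used in all cells, 2 were also listed at 0 in the library labelled mutant, so a listed 0 is not read here as absence. In bulk seedlings, fewer cells of a type and less RNA per cell cannot be told apart.

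ECA2 had the widest range of the 10 genes. It is an ER-type calcium pump gene at chr4:382663-386529 on the minus strand. Its level was 0.399 FPKM (0.00926 to 2.04) in the library labelled mutant + kan and 62.8 FPKM (55.9 to 70.5) in that labelled mutant. In the control line it was 21.5 FPKM (17.8 to 25.8) in the library labelled control + kan and 3.36 FPKM (1.65 to 6.33) in that labelled control. These levels rest on about 1, 295, 118 and 10 reads. The intervals of the 2 libraries without kanamycin are far apart, as are those of the 2 libraries with it, but the line with the higher level is not the same one in both pairs.

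Without kanamycin, ECA2 was 18.7-fold higher (9.79 to 38.5) in the library labelled mutant than in that labelled control. With kanamycin it stood 53.8-fold lower in the library labelled mutant + kan than in that labelled control + kan, with a wide counting interval of 10.4 to 2346, since the lower value is 1 read. Within the control line, ECA2 was 6.38-fold higher (3.28 to 13.4) in the library with kanamycin. Within the mutant line it was 158-fold lower (30.6 to 6813) in the library with kanamycin. Ordered by level, all 4 libraries differed from their neighbours beyond counting error, the closest pair being the library labelled mutant and that labelled control + kan, 2.93-fold apart (2.35 to 3.65).

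**Figure D1:**
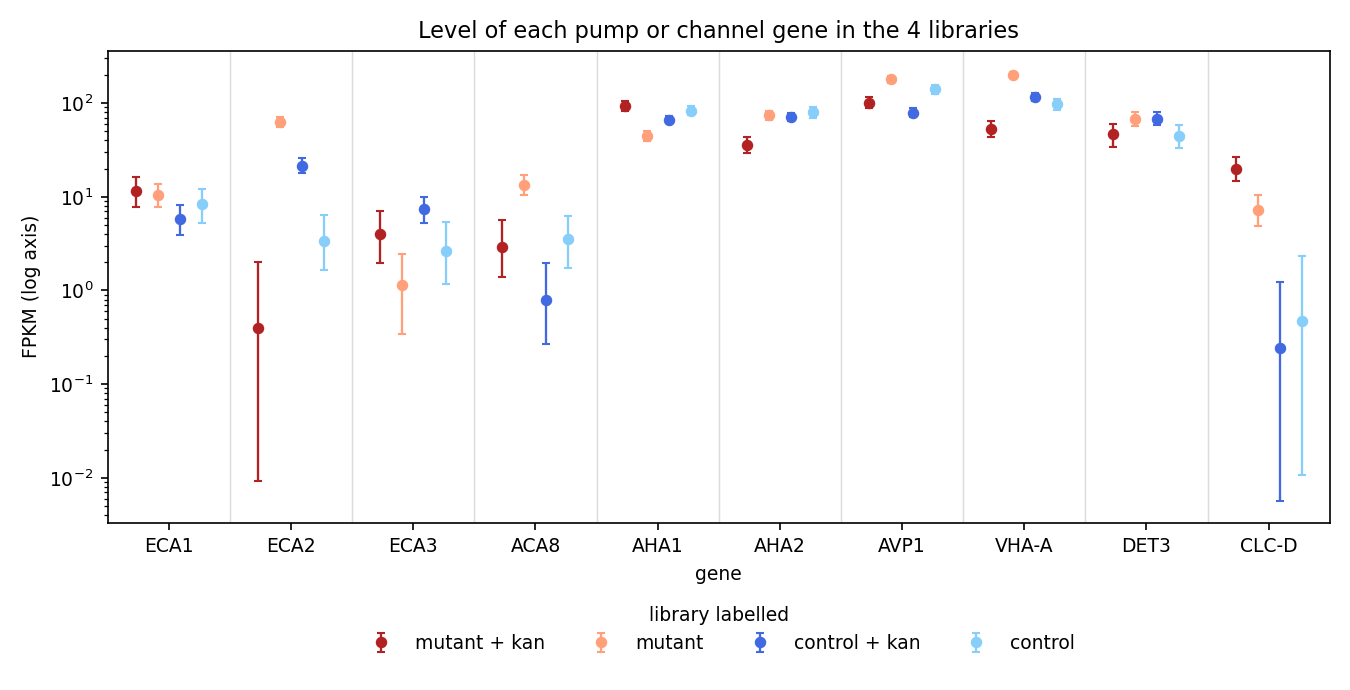
FPKM of each of the 10 genes (log axis) in the libraries labelled mutant + kan, mutant, control + kan and control, 1 library each, with bars for the 95% counting interval. ECA2 spans 0.399 to 62.8 FPKM and CLC-D 0.246 to 19.8 FPKM, while DET3 stays between 44.2 and 68.2 FPKM.

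ECA1, which pumps calcium and manganese into the endoplasmic reticulum, lies at chr1:2416265-2420757 on the plus strand. Its level was 11.5 FPKM (7.87 to 16.2) in the library labelled mutant + kan, 10.5 FPKM (7.78 to 13.8) in that labelled mutant, 5.77 FPKM (3.93 to 8.11) in that labelled control + kan and 8.29 FPKM (5.21 to 12.1) in that labelled control. No 2 libraries next to each other in level were apart beyond counting error. With kanamycin the mutant line was 1.99-fold higher (1.19 to 3.38) than the control line. Since ECA1 shares most of its sequence with ECA4, their sum is the safer value. ECA4 itself had 8.82 FPKM in the library labelled mutant + kan, 4.11 in that labelled mutant, 2.19 in that labelled control + kan and 4.30 in that labelled control. The sum was 20.3 FPKM in the library labelled mutant + kan, 14.6 in that labelled mutant, 7.95 in that labelled control + kan and 12.6 in that labelled control.

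ECA3, a calcium and manganese pump of the Golgi and endosomes, lies at chr1:3310930-3322213 on the plus strand. It was the only member with a mean under 5 FPKM (3.82 FPKM), and it was left out of the main 2-fold counts below. It had 4.00 FPKM (1.99 to 7.12) in the library labelled mutant + kan, 1.15 FPKM (0.342 to 2.46) in that labelled mutant, 7.45 FPKM (5.32 to 10.05) in that labelled control + kan and 2.67 FPKM (1.18 to 5.37) in that labelled control. In both lines the library with kanamycin had the higher level, 3.49-fold (1.21 to 13.9) in the mutant line and 2.79-fold (1.26 to 6.71) in the control line. At 5 to 41 reads per library, no neighbouring pair in the order of levels was apart beyond counting error.

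The makeup of the ECA family differed between the libraries mainly through ECA2. ECA2 made up 1.62% of the summed FPKM of the 4 ECA genes in the library labelled mutant + kan, 79.9% in that labelled mutant, 58.2% in that labelled control + kan and 18.1% in that labelled control. The family summed to 24.7, 78.6, 36.9 and 18.6 FPKM in the same order of libraries. The ratio of ECA2 to ECA1 was 0.0348 (0.00078 to 0.190) in the library labelled mutant + kan, 5.97 (4.43 to 8.27) in that labelled mutant, 3.72 (2.52 to 5.73) in that labelled control + kan and 0.406 (0.181 to 0.919) in that labelled control. Such ratios within a library do not depend on its scaling.

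**Figure D2:**
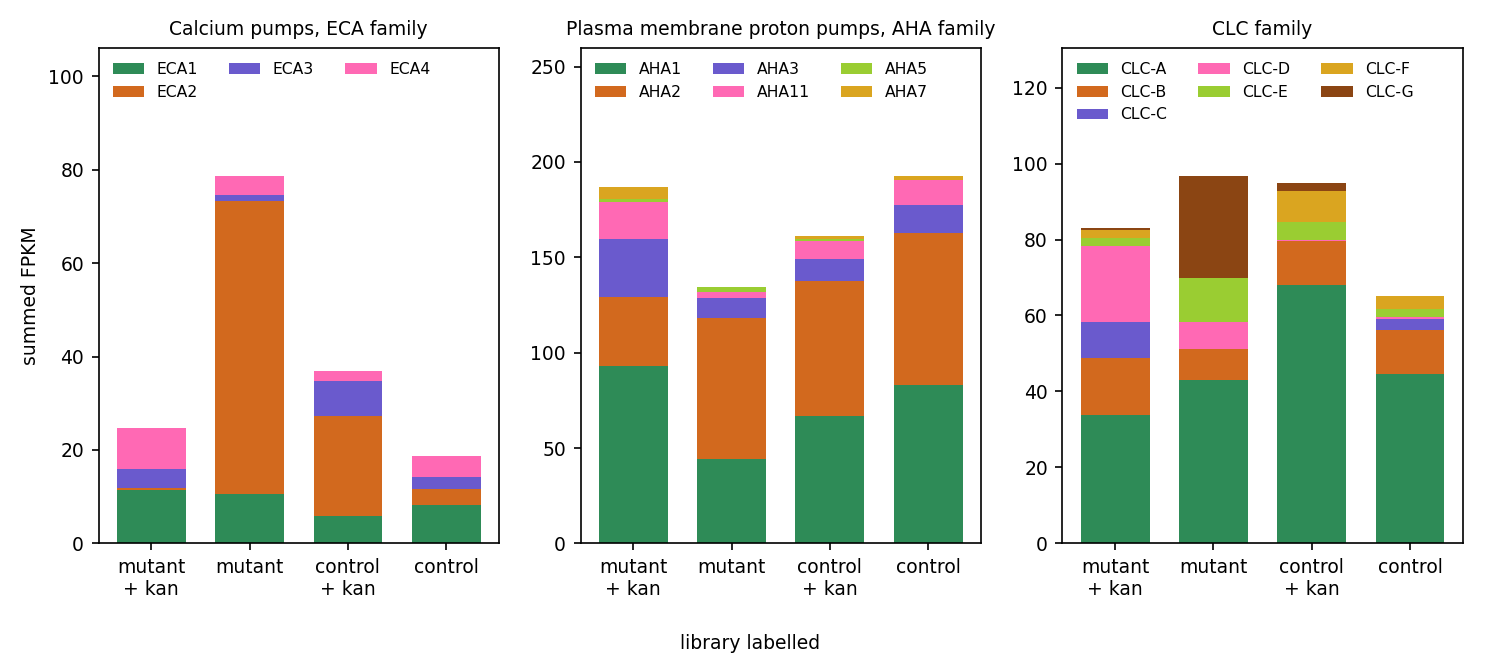
Summed FPKM of the 4 ECA genes, of the 6 AHA genes above 0 and of the 7 CLC genes in the libraries labelled mutant + kan, mutant, control + kan and control; each colour is 1 gene. ECA2 fills 79.9% of the ECA bar of the library labelled mutant, and CLC-D fills 23.9% of the CLC bar of that labelled mutant + kan.

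ACA8 encodes a calmodulin-activated pump that moves calcium out of the cell, and it lies at chr5:23109438-23117563 on the minus strand. It had 2.94 FPKM (1.38 to 5.72) in the library labelled mutant + kan, 13.5 FPKM (10.5 to 17.0) in that labelled mutant, 0.796 FPKM (0.271 to 1.95) in that labelled control + kan and 3.53 FPKM (1.73 to 6.20) in that labelled control. The library labelled mutant stood above the other 3, whose levels rest on 5 to 11 reads each. In both pairs the mutant line was higher, 3.81-fold (2.04 to 8.13) without kanamycin and 3.70-fold (1.09 to 13.7) with it. In both lines the library with kanamycin was lower, 4.58-fold (2.22 to 10.2) in the mutant line and 4.44-fold (1.33 to 15.2) in the control line. ACA8 differed from ECA2 in this, since its direction was the same in both lines.

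AHA1 and AHA2 encode the main proton pumps of the plasma membrane, at chr2:8221631-8227622 on the plus strand and chr4:14770499-14776058 on the minus strand. AHA1 had 93.1 FPKM (82.96 to 104) in the library labelled mutant + kan, 44.4 FPKM (39.1 to 50.3) in that labelled mutant, 66.8 FPKM (60.7 to 73.4) in that labelled control + kan and 83.3 FPKM (74.0 to 93.6) in that labelled control. AHA2 had 35.9 FPKM (29.1 to 43.9), 73.9 FPKM (66.3 to 82.4), 70.9 FPKM (63.9 to 78.5) and 79.6 FPKM (69.6 to 90.9) in the same order of libraries. The lowest library of AHA1 was that labelled mutant, and the lowest of AHA2 was that labelled mutant + kan. The other 3 libraries of AHA2 could not be told apart by counting error.

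Within the mutant line the pair differed in opposite directions. AHA1 was 2.098-fold higher (1.77 to 2.49) and AHA2 2.06-fold lower (1.64 to 2.62) in the library labelled mutant + kan than in that labelled mutant. The ratio of AHA1 to AHA2 was 2.59 (2.05 to 3.30) in the library labelled mutant + kan and 0.600 (0.508 to 0.710) in that labelled mutant. In the control line it was 0.942 (0.819 to 1.08) in the library labelled control + kan and 1.05 (0.875 to 1.25) in that labelled control, so that both intervals include a ratio of 1. The sum of the pair varied less than either gene: it was 129 FPKM in the library labelled mutant + kan, 118 in that labelled mutant, 138 in that labelled control + kan and 163 in that labelled control, a range of 1.38-fold against 2.098-fold for AHA1 and 2.22-fold for AHA2. A share of the reads of each gene matches the other within 2 mismatches, as given above.

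AVP1, the proton pyrophosphatase that acidifies the vacuole, was the most abundant of the 10 genes by mean FPKM and lies at chr1:5398990-5403818 on the plus strand. It had 100.7 FPKM (87.7 to 115) in the library labelled mutant + kan, 179 FPKM (166 to 193) in that labelled mutant, 78.9 FPKM (70.8 to 87.8) in that labelled control + kan and 142 FPKM (127 to 158) in that labelled control. In both lines the library with kanamycin had less of it, by nearly the same factor. It was 1.78-fold lower (1.53 to 2.08) in the mutant line and 1.80-fold lower (1.54 to 2.09) in the control line. The mutant line was also higher by like amounts in both media, 1.28-fold (1.07 to 1.51) with kanamycin and 1.26-fold (1.11 to 1.45) without it.

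VHA-A encodes the catalytic subunit of the vacuolar ATPase, in the V1 sector that splits ATP, and lies at chr1:29660184-29664951 on the plus strand. It had 53.4 FPKM (43.6 to 64.6) in the library labelled mutant + kan, 198 FPKM (183 to 214) in that labelled mutant, 117 FPKM (107 to 128) in that labelled control + kan and 97.5 FPKM (84.6 to 112) in that labelled control. Every neighbouring pair in the order of levels was apart beyond counting error, before any rescaling. The closest pair was the library labelled control + kan and that labelled control. Their log2 difference was 0.26, and 0.16 after scaling by upper quartiles. The counting interval holds no error of scaling. VHA-A was 3.71-fold lower (3.02 to 4.61) in the library labelled mutant + kan than in that labelled mutant, whereas it was 1.20-fold higher (1.01 to 1.42) in that labelled control + kan than in that labelled control. Between the lines it was 2.19-fold lower (1.77 to 2.74) in the mutant line with kanamycin and 2.03-fold higher (1.73 to 2.39) in the mutant line without it.

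DET3 encodes the C subunit of the same V1 sector, and lies at chr1:4375515-4378514 on the plus strand. Its mutant was found as a seedling that grows in the dark as if it were in the light. Of the 10 genes it varied least: 46.3 FPKM (34.1 to 60.6) in the library labelled mutant + kan, 68.0 FPKM (56.7 to 80.9) in that labelled mutant, 68.2 FPKM (57.8 to 80.2) in that labelled control + kan and 44.2 FPKM (32.9 to 58.0) in that labelled control. DET3 followed the directions of VHA-A in all 4 comparisons, with ratios of 1.54-fold or less. The ratio of VHA-A to DET3 was 1.16 (0.821 to 1.66) in the library labelled mutant + kan, 2.91 (2.41 to 3.55) in that labelled mutant, 1.72 (1.42 to 2.07) in that labelled control + kan and 2.21 (1.62 to 3.07) in that labelled control. The levels of these subunits of 1 complex thus did not keep a constant proportion.

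CLC-D, at chr5:9189524-9194731 on the plus strand, was found mostly in the libraries of the mutant line. It had 19.8 FPKM (14.6 to 26.8) in the library labelled mutant + kan and 7.30 FPKM (4.83 to 10.5) in that labelled mutant. In the control line it had 0.246 FPKM (0.00563 to 1.24) in the library labelled control + kan and 0.478 FPKM (0.0106 to 2.34) in that labelled control. These are about 45, 28, 1 and 1 reads. The intervals of both libraries of the mutant line lie above those of both libraries of the control line.

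With kanamycin CLC-D was 80.8-fold higher (15.4 to 3640) in the library labelled mutant + kan than in that labelled control + kan, and without it 15.3-fold higher (2.86 to 708) in that labelled mutant than in that labelled control. The lower value is a single read in each case, which sets the width of these intervals. Within the mutant line the library with kanamycin was 2.72-fold higher (1.68 to 4.59). Within the control line, 1 read against 1 read gives no order. CLC-D made up 23.9% of the summed FPKM of the 7 CLC genes in the library labelled mutant + kan, 7.55% in that labelled mutant, 0.259% in that labelled control + kan and 0.733% in that labelled control. The family as a whole varied by only 1.48-fold, with sums of 83.04, 96.7, 94.9 and 65.2 FPKM in the same order.

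**Figure D3:**
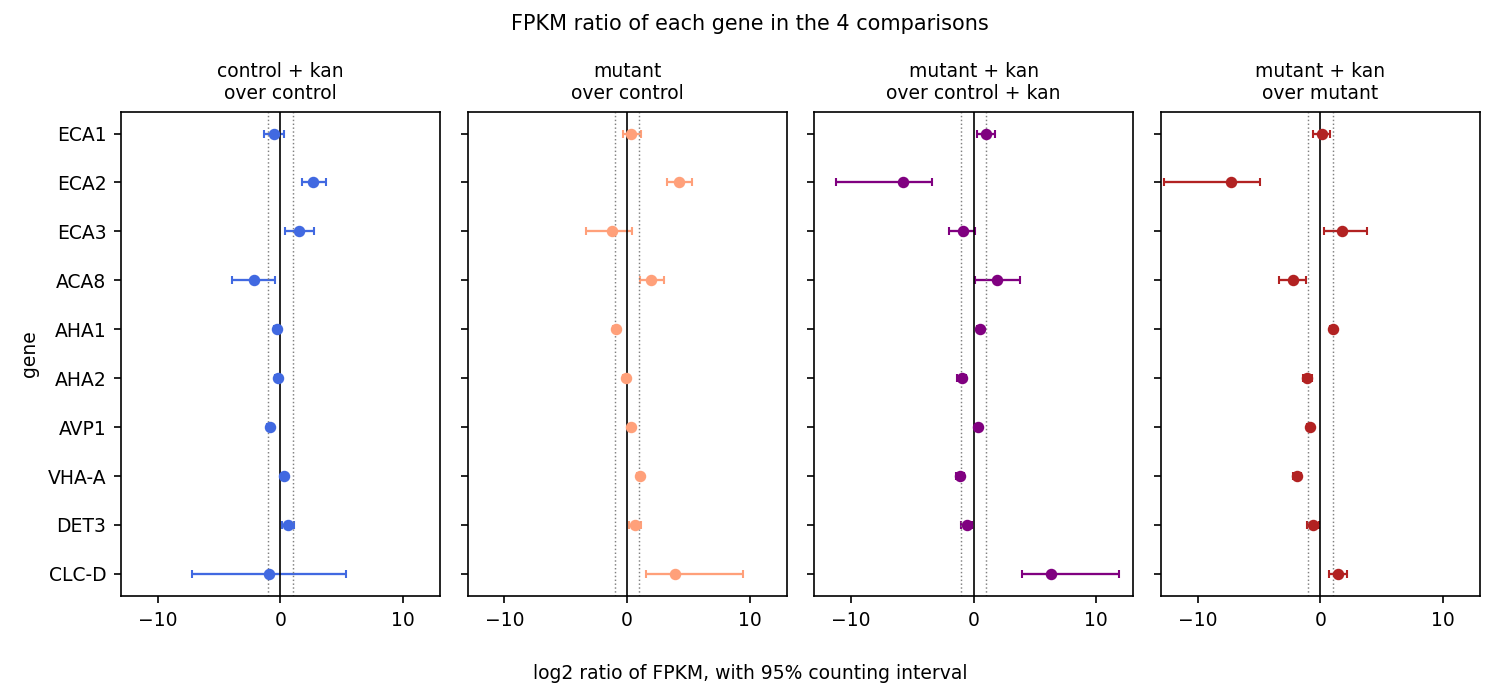
Log2 ratio of FPKM of each gene in the 4 comparisons, 1 library over 1 library, with bars for the 95% counting interval and dotted lines at 2-fold. ECA2 lies right of 0 in the first 2 panels and left of 0 in the last 2, and CLC-D lies far right where the library labelled mutant + kan is set against that labelled control + kan, at 80.8-fold.

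To set the genes beside the rest of the table, a difference was counted when it was at least 2-fold on the log2(FPKM + 1) scale, which understates ratios of low values, and when the mean over the 4 libraries was at least 5 FPKM. This holds for 9761 genes and for 9 of the 10 members. In the library labelled control + kan against that labelled control, 1 member was higher (ECA2) and 1 lower (ACA8), while 26.6% of all these genes were higher and 30.8% lower. In the library labelled mutant against that labelled control, 4 members were higher (ECA2, ACA8, VHA-A and CLC-D) and none of the 9 was lower, beside 23.9% and 37.2% of all genes. ACA8 reached the mean of 5 FPKM only through the library labelled mutant, and CLC-D only through the mutant line. Their place among the higher members is therefore partly set by the minimum mean. Between the lines with kanamycin, 2 members were higher (ACA8 and CLC-D) and 2 lower (ECA2 and VHA-A) in the library labelled mutant + kan, beside 29.0% and 30.4%. In the library labelled mutant + kan against that labelled mutant, 2 members were higher (AHA1 and CLC-D) and 4 lower (ECA2, ACA8, AHA2 and VHA-A), beside 35.7% and 27.1%.

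In either direction, 57.4%, 61.0%, 59.4% and 62.8% of all genes were at least 2-fold apart in these 4 comparisons, so that a difference of this size was the common case in the table. Since the genes were chosen with these values known, nothing about the group is read from its counts. The median log2 difference of all genes was 0.00 in control + kan against control, −0.28 in mutant against control, 0 in mutant + kan against control + kan and 0.08 in mutant + kan against mutant. Several counts rest on genes close to the 2-fold line: VHA-A in mutant against control (log2 difference 1.02), AHA1 and AHA2 in mutant + kan against mutant (1.05 and −1.02), and, just outside it, AHA2 in mutant + kan against control + kan (−0.96) and ECA1 in the same comparison (0.88). With another pseudocount or scaling, VHA-A in both comparisons between lines, AHA1 and AHA2 in mutant + kan against mutant, and ACA8 in control + kan against control and in mutant + kan against control + kan came under 2-fold, and ECA1 in mutant + kan against control + kan came over it.

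The ECA2 and CLC-D differences can be placed among all genes by size. In mutant + kan against mutant, ECA2 had a log2 difference of −5.51, and 3.49% of the 9761 genes had one at least as large in either direction. For its log2 difference of 3.87 in mutant against control the share was 14.99%, and for −4.01 in mutant + kan against control + kan it was 12.5%. CLC-D had a log2 difference of 4.07 in mutant + kan against control + kan, and 11.98% of all genes had one as large. The other differences of these genes were of more common size: 26.0% of all genes had one as large as that of ECA2 in control + kan against control, and for CLC-D the share was 31.6% in mutant against control, 54.2% in mutant + kan against mutant and 86.4% in control + kan against control. Comparisons of the same gene share libraries and are not independent of each other. The library labelled mutant, in which ECA2 was highest, is also the one with 9 of 14 root markers listed at 0. The part of the root markers in the ECA2 and CLC-D values was not tested.

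When the library with kanamycin was set against that without it, 6 of the 10 genes (ECA1, ECA2, AHA1, VHA-A, DET3 and CLC-D) lay on opposite sides of 0 in the 2 lines. Among all 9761 genes the share was 46.3%. ECA3, with a mean under 5 FPKM, is among the 10 genes but not among the 9761. The opposition was at least 2-fold in both lines only for ECA2, whose log2 difference was −5.51 in the mutant line and 2.36 in the control line, and 18.6% of all genes were opposed to that extent. ECA3, ACA8, AHA2 and AVP1 had the same sign in both lines. The signs of ECA1 in both lines, and those of CLC-D and AHA2 in the control line, lie within counting error. ECA3 (1.22 in the mutant line and 1.20 in the control line) and AVP1 (−0.82 and −0.84) had nearly equal log2 differences.

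**Figure D4:**
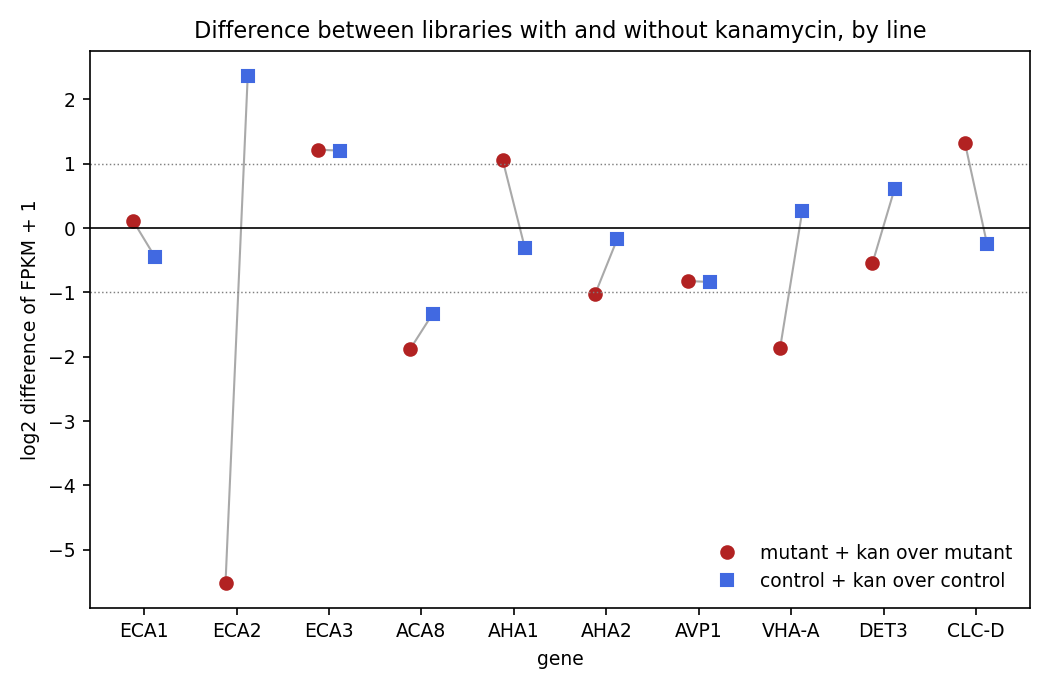
Log2 difference of FPKM + 1 between the library with and the library without kanamycin for each of the 10 genes, in the mutant line (circles, left) and the control line (squares, right), 1 library each; dotted lines mark 2-fold. ECA2 lies at −5.51 in the mutant line and 2.36 in the control line, while the points of ECA3 and AVP1 lie side by side.

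The rest of each pump or channel family was described by lists of 69 genes in all, members included. Of these, 13 were listed at 0 in every library and 46 passed the mean of 5 FPKM. In mutant + kan against mutant the 2-fold counts among the 46 were 11 higher and 11 lower, and in mutant + kan against control + kan 9 were higher and 13 lower. In mutant against control the counts were 12 and 12, and in control + kan against control 8 and 10. In either direction that is 39.1% to 52.2% of the listed genes, beside the 57.4% to 62.8% of all genes given above. The median log2 difference of the 46 genes was −0.09 in mutant + kan against mutant, −0.33 in mutant + kan against control + kan, −0.06 in mutant against control and −0.15 in control + kan against control. The 10 described genes are among them, and no test was made of the lists.

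Among the autoinhibited calcium pumps, 6 of 10 ACA genes had a mean of at least 5 FPKM. ACA4, a pump of the vacuolar membrane, was the most abundant with 34.8 FPKM in the library labelled mutant + kan, 32.4 in that labelled mutant, 52.4 in that labelled control + kan and 27.5 in that labelled control. ACA1 stood out in the library labelled control + kan, with 10.5, 11.3, 43.4 and 13.9 FPKM in that order of libraries. ACA10, a plasma membrane pump related to ACA8, had 23.3, 11.2, 19.0 and 4.67 FPKM. Unlike ACA8, it was higher with kanamycin in both lines. ACA2 had 15.7 FPKM in the library labelled mutant + kan, a listed 0 in that labelled mutant, 3.63 in that labelled control + kan and 4.00 in that labelled control. In control + kan against control, 3 of the 6 ACA genes were at least 2-fold higher (ACA1, ACA10 and ACA11) and 1, ACA8, was lower, with a median of 1.06. Beside this, 26.6% of all genes were higher and 30.8% lower, and the median gene stood at 0.00. In the other 3 comparisons the ACA median lay between −0.15 and 0.19.

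Of the 11 plasma membrane proton pump genes, 5 were listed at 0 throughout and 4 had a mean of at least 5 FPKM. AHA3, next in level after AHA1 and AHA2, had 30.5 FPKM in the library labelled mutant + kan, 10.2 in that labelled mutant, 11.2 in that labelled control + kan and 14.6 in that labelled control. In mutant + kan against mutant, 3 of the 4 genes were at least 2-fold higher (AHA1, AHA3 and AHA11) and AHA2 was lower, with a median of 1.28. Of all genes 35.7% were higher and 27.1% lower, and the median gene stood at 0.08. The AHA median was 0.015 over AHA1 and AHA2, which alone exceed a mean of 20 FPKM, and 0 over all 11 AHA genes. In the same comparison 5 of the 10 genes used in all cells were at least 2-fold higher and none was lower (median 0.93), and 6 of 14 root markers were higher and 2 lower (median 0.81). Their part in the AHA values was not tested. No AHA gene with such a mean differed by 2-fold in control + kan against control.

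The V1 sector of the vacuolar ATPase was measured with 12 of 14 genes over the mean of 5 FPKM. VHA-E1, in the stalk that joins the sectors, had 194 FPKM in the library labelled mutant + kan, 204 in that labelled mutant, 122 in that labelled control + kan and 91.6 in that labelled control. VHA-G1, another stalk subunit gene, had 105, 63.4, 47.3 and 102 FPKM in the same order. In mutant against control, 2 of the 12 genes were at least 2-fold higher (VHA-A and VHA-E1) and 6 lower, with a median log2 difference of −0.90. Of all genes 23.9% were higher and 37.2% lower, and the median gene stood at −0.28. In the same comparison 1 of the 10 genes used in all cells was higher and 4 were lower (median −0.89), and the library labelled mutant had 9013 genes above 0 against 15072 in that labelled control. Their part in the V1 values was not tested. Without a minimum mean, the V1 median was −0.34. VHA-F, one of the 6, was listed at 0 in both libraries of the mutant line and at 48.6 FPKM in the library labelled control + kan and 76.7 in that labelled control. VHA-G2 had 76.1 FPKM in the library labelled mutant + kan, a listed 0 in that labelled mutant, 22.0 in that labelled control + kan and 35.1 in that labelled control. VHA-E3 had 8.55, 0, 5.04 and 27.6 FPKM in the same order, its 0 again in the library labelled mutant.

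The membrane sector, Vo, had 13 of 14 genes over the mean. VHA-a3, whose protein sits in the vacuolar membrane, had 53.8 FPKM in the library labelled mutant + kan, 101 in that labelled mutant, 85.0 in that labelled control + kan and 30.6 in that labelled control. Its highest library is the same as that of VHA-A. The c subunits form the proton-carrying ring and are encoded by similar genes. Of all stretches of 36 bases in the VHA-c1 to VHA-c5 transcripts, 4.16% to 14.2% lie within 2 mismatches of another listed gene. Identical stretches make up 0.453% in VHA-c1, 0.396% in VHA-c3 and 0% in VHA-c2, VHA-c4 and VHA-c5. Reads from stretches within 2 mismatches could be assigned to the wrong copy, which was not examined. VHA-c1 had 96.4 FPKM in the library labelled mutant + kan, 112 in that labelled mutant, a listed 0 in that labelled control + kan and 66.7 in that labelled control. VHA-c4 had 11.0, 52.1, 0 and 19.96 FPKM in the same order, and was thus listed at 0 in the same library. VHA-c2 was lowest in the library labelled mutant, with 92.6 FPKM in that labelled mutant + kan, 14.3 in that labelled mutant, 125 in that labelled control + kan and 138 in that labelled control.

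Further Vo genes past the size used for naming were VHA-c5, VHA-c''1, VHA-e1 and VHA-e2. VHA-c5 had 4.70 FPKM in the library labelled mutant + kan, 37.3 in that labelled mutant, 48.9 in that labelled control + kan and 18.0 in that labelled control. VHA-c''1 had 7.60, 84.8, 17.7 and 39.4 FPKM in the same order. VHA-e1 was listed at 0 in the library labelled mutant + kan and had 28.9, 17.9 and 52.7 FPKM in those labelled mutant, control + kan and control. VHA-e2 had 25.4 FPKM in the library labelled mutant + kan, a listed 0 in that labelled mutant, 61.5 in that labelled control + kan and 30.98 in that labelled control. In control + kan against control, 2 of the 13 Vo genes were at least 2-fold higher and 6 lower, beside 26.6% and 30.8% of all genes. In mutant against control 4 were higher and 3 lower, beside 23.9% and 37.2%. In mutant + kan against control + kan 3 were higher and 5 lower, beside 29.0% and 30.4%, and the counts were the same in mutant + kan against mutant, beside 35.7% and 27.1%.

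Among the 3 pyrophosphatase genes, VHP2;1 had 13.1 FPKM in the library labelled mutant + kan, 8.25 in that labelled mutant, 12.2 in that labelled control + kan and 14.9 in that labelled control. VHP2;2 had 5.84 FPKM, a listed 0, 6.18 FPKM and 1.85 FPKM in the same order. AVP1 was therefore the main pyrophosphatase transcript in every library. Neither AVP1 nor VHP2;1, which passed the mean of 5 FPKM, differed by 2-fold in any of the 4 comparisons. Within a single comparison, 57.4% to 62.8% of all genes did so in either direction. The share of all genes that did so in any of the 4 was not counted.

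Of the 7 CLC genes, 5 had a mean of at least 5 FPKM. CLC-A, which brings nitrate into the vacuole in exchange for protons, was the most abundant, with 33.8 FPKM in the library labelled mutant + kan, 43.0 in that labelled mutant, 68.2 in that labelled control + kan and 44.7 in that labelled control. CLC-B had 14.99, 8.06, 11.6 and 11.6 FPKM in the same order. CLC-G, a chloride carrier of the vacuolar membrane, had 0.596 FPKM in the library labelled mutant + kan, 26.8 in that labelled mutant and 2.27 in that labelled control + kan, and was listed at 0 in that labelled control. In mutant against control 3 of the 5 CLC genes were at least 2-fold higher (CLC-D, CLC-E and CLC-G) and none of the 5 was lower, beside 23.9% and 37.2% of all genes. CLC-E and CLC-G reached the mean of 5 FPKM only through the library labelled mutant, and CLC-D only through the mutant line. This count is therefore partly set by the minimum mean. CLC-C and CLC-F, which fell under it, had log2 differences of −1.95 and −2.13 in this comparison. The median of the 5 was 1.97, but that of all 7 CLC genes was −0.05. With kanamycin, 1 of the same 5 was at least 2-fold higher in the mutant line (CLC-D) and 1 lower (CLC-G), beside 29.0% and 30.4% of all genes.

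The exchangers that move calcium into the vacuole against protons complete the lists. CAX1, the most abundant listed gene after VHA-E1, had 118 FPKM in the library labelled mutant + kan, 136 in that labelled mutant, 181 in that labelled control + kan and 133 in that labelled control. CAX3 had 3.14, 0, 15.9 and 3.78 FPKM and CAX2 8.999, 0, 0.663 and 5.19 FPKM in the same order. Both were listed at 0 in the library labelled mutant, in which ECA2 and ACA8 were highest.

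**Figure D5:**
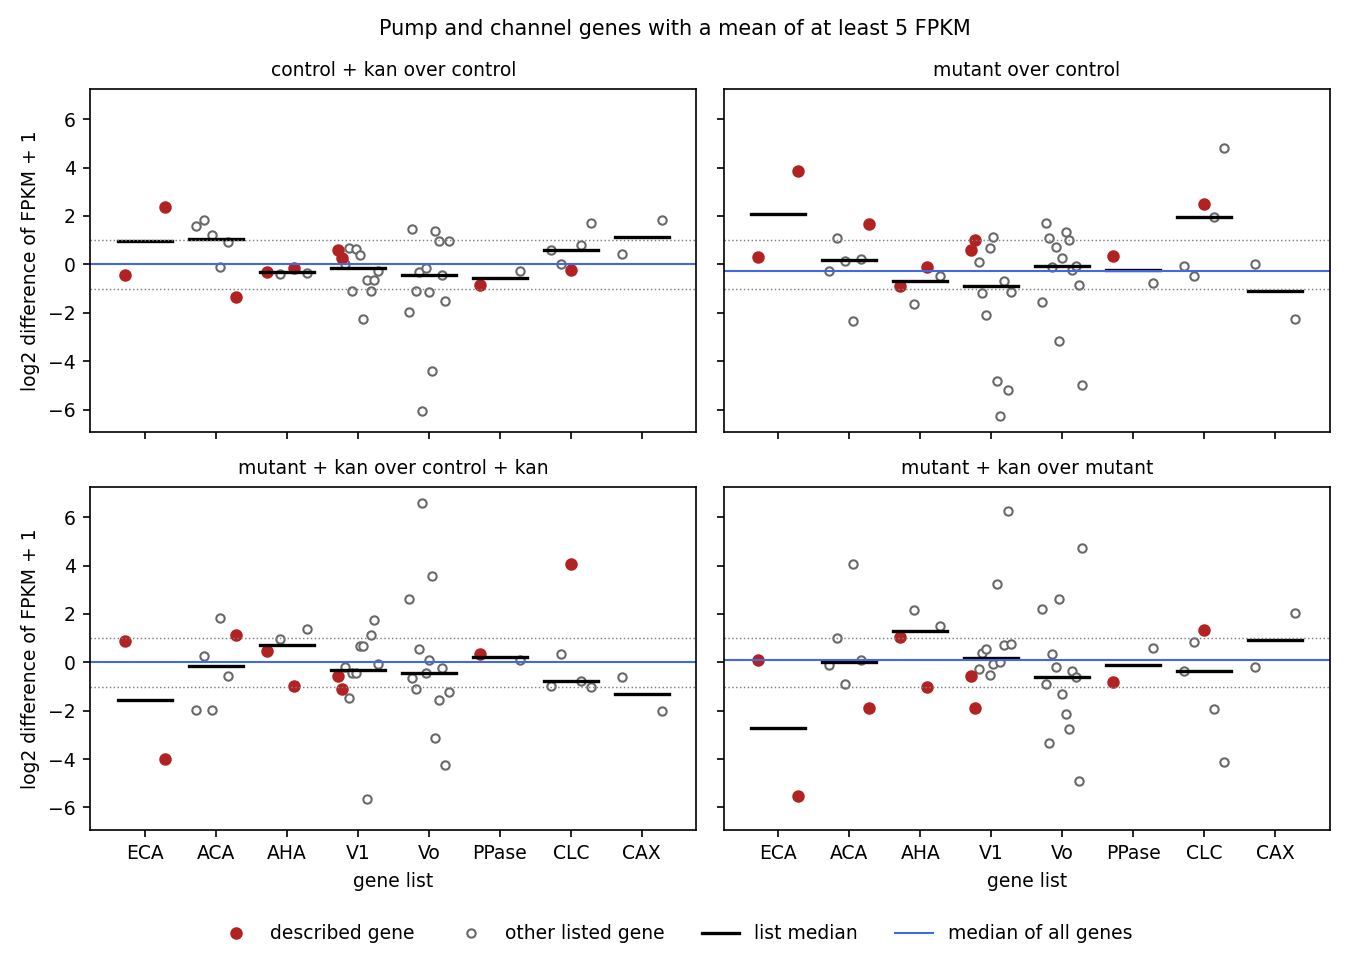
Log2 difference of FPKM + 1 in the 4 comparisons for each gene of 8 pump and channel lists whose mean reaches 5 FPKM; filled points are the described genes, open points the other listed genes, black bars the list medians, the blue line the median of all 9761 genes and dotted lines 2-fold. Filled points of the ECA list reach 3.87 in mutant over control and −5.51 in mutant + kan over mutant, and open points of the V1 and Vo lists lie as far out.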

How the data were processed

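Poly(A) RNA of 4 seedling samples was fragmented, ligated to adapters and sequenced single-end. The authors kept clipped reads of 36 bases and deposited 1 FPKM value per gene and library; their notes name TopHat2 2.0.5 for the alignment to TAIR10, Cufflinks 2.0.2 for assembly and Cuffdiff 1.3.0 for abundance. The deposited table also holds fold changes, p-values, q-values and a test status for each comparison, which were not used. Of 33624 entries, 78 whose copies of a value differ and 7 without a value were left out.

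Reads behind a value were estimated from the step between low values and the transcript length less 200 bases; 75.1% to 84.6% of low values lay within 0.2 of a whole number of reads. Differences are log2 ratios of FPKM with a pseudocount of 1, counted at 2-fold or more where the gene's mean reached 5 FPKM. With 1 library per group no test was possible. Ratios within and between libraries have exact (Clopper-Pearson) 95% intervals from the reads. The size rule was run on simulated libraries with counting error only. That run cannot show how the rule behaves with the other differences between these libraries.

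Members, lists and rules were chosen with earlier results of these data known. Named are the members, the 3 most abundant genes of each list, list genes with a log2 difference of at least 3 and the 3 genes nearest in pattern to ECA2 and CLC-D. Alternatives were pseudocounts of 0.1 and 5, rescaled libraries, other minimum means, and 100 or no bases subtracted. Coordinates are those of TAIR10, and sequences come from RefSeq (TAIR10.1). Computations used Python 3.11.15, numpy 2.4.6, scipy 1.17.1, pandas 2.3.3 and matplotlib 3.10.9.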

Additional observations from a re-analysis of the deposited data

Results flagged for a closer look

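For 6 of the 10 genes the difference between the library with kanamycin and that without it had opposite signs in the mutant and the control line. Of all 9761 genes, 46.3% had opposite signs. Each line has 1 library per condition, so the difference between the lines was not tested. As a log2 difference in the mutant line minus that in the control line it was −7.88 for the calcium pump gene ECA2 and −2.13 for VHA-A, the catalytic subunit gene of the vacuolar ATPase. It was −1.16 for DET3, the gene of another subunit of that pump. The proton pump gene AHA1 had 1.37, CLC-D 1.58 and ECA1 0.57. For CLC-D and ECA1 the sign in the control line lies within counting error, and for ECA1 that in the mutant line does as well. A value as large as that of ECA2, in either direction, was found for 340 of these genes (3.48%), and one as large as that of CLC-D for 5783 (59.2%).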

How the results depend on the processing

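No paired analysis was possible because each group has 1 library, and for the same reason no library could be left out. All 160 recomputed log2 differences of the 10 genes moved no further than the bounds of their counting interval lie from its centre, but a pseudocount of 5 brought low genes closer together: ECA2 had 3.02 in mutant against control, against 3.87, and CLC-D 2.24 in mutant + kan against control + kan, against 4.07. None of their 18 differences of 2-fold or more changed sign under rescaling, and of all 40 differences only that of AHA2 in mutant against control did (−0.11, against 0.04 after scaling by upper quartiles). Counts of members at least 2-fold apart moved in several settings. With a pseudocount of 5, 0 were lower and 1 was apart in control + kan against control, 1 was higher in mutant + kan against control + kan and 1 in mutant + kan against mutant. With either rescaling, 1 was lower in mutant + kan against control + kan, and with upper quartiles 1 was higher in mutant + kan against mutant. With a minimum mean of 1 FPKM or none, 2 were higher in control + kan against control. With a minimum of 20 FPKM fewer genes were counted. In control + kan against control 0 were lower and 1 apart, and in mutant against control 2 were higher and 2 apart. In mutant + kan against control + kan 0 were higher and 2 apart, and in mutant + kan against mutant 1 was higher. Of all genes, 45.3% to 51.5% were at least 2-fold apart with a pseudocount of 5 and 46.4% to 53.1% with a minimum of 20 FPKM. With either rescaling the share was 57.1% to 63.1%, and with a minimum mean of 1 FPKM it was 60.2% to 63.4%. List medians changed sign with the minimum mean, and some also with rescaling or another pseudocount. After scaling by upper quartiles the Vo median in mutant against control was 0.071, against −0.076. At the main minimum of 5 FPKM the ECA and CAX medians are of 2 genes each. The cases given next are examples, since ACA, AHA, Vo, PPase, CLC and CAX medians also changed sign in other comparisons. The CLC median in mutant against control was −0.052 with a minimum of 1 or 20 FPKM or none, against 1.97. The CAX median there was 0.035 with 20 FPKM, against −1.11. The ECA median, with a minimum of 1 FPKM or none, was 0.062 in mutant + kan against control + kan, against −1.56, and 0.53 in mutant + kan against mutant, against −2.70. Without any minimum, 30.2% to 32.2% of all genes were at least 2-fold apart, where many lie at or near 0. ECA2 in the library labelled mutant + kan and CLC-D in both libraries of the control line rest on 1 read each, which limits what their ratios can show.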

Other observations

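The genes nearest in pattern to ECA2 and CLC-D were found by the distance between centred log2(FPKM + 1) values over the 4 libraries. For ECA2 they were UNE16, which encodes a MYB-like transcription factor (distance 0.43), RDM4, a factor of RNA-directed DNA methylation (0.59), and AT5G16140 (0.67). UNE16 was listed at 0 in the library labelled mutant + kan and had 44.8 FPKM in that labelled mutant, 18.7 in that labelled control + kan and 3.45 in that labelled control. RDM4 was likewise listed at 0 in the library labelled mutant + kan, and had 31.2, 8.16 and 1.53 FPKM in the other 3 in the same order. In all, 20 genes lay within a distance of 1 of ECA2 and 27 within 1 of CLC-D.

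For CLC-D the nearest were PLP6, a patatin-like protein gene (0.34), and the neighbouring loci AT1G18010 (0.47) and AT1G18000 (0.50). PLP6 had 18.3 FPKM in the library labelled mutant + kan, 5.66 in that labelled mutant, a listed 0 in that labelled control + kan and 0.578 in that labelled control. AT1G18010 had 22.0, 5.24, 0.425 and 0.430 FPKM in the libraries labelled mutant + kan, mutant, control + kan and control. AT1G18000 had 20.7, 4.92, 0.402 and 0.404 FPKM in the same order. Whether reads are shared between these neighbouring loci was not examined. With 4 libraries, likeness of pattern is a weak measure, and several of these values rest on few reads.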
